A study of Mus musculus with 6 samples.

Results

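The genes described here form the core of the G1 phase machinery of the cell cycle, and they were taken by symbol from the deposited gene tables. They are the D-type cyclins Ccnd1, Ccnd2 and Ccnd3, the E-type cyclins Ccne1 and Ccne2, the kinases Cdk2, Cdk4 and Cdk6, the transcription factor E2f1 and the inhibitor Cdkn1b. All 10 were found among 24062 genes, each in 1 row. RNA was sequenced from RAW264.7 cells, a transformed mouse macrophage line that grows continuously in serum-containing medium. The sample labels also give bone marrow as the tissue, while the culture protocol names the cell line. M0 cells were left unpolarized, M1 cells were given LPS (100 ng/mL) with IFN-γ (20 ng/mL), and M2 cells were given IL-4 (20 ng/mL), each for 24 h. RM0, RM1 and RM2 were the corresponding states exposed to 10 Gy of γ-rays and kept for a further 24 h. Whether the non-irradiated cells were also kept for that further time is not given in the sources used here. Each condition was represented by 1 library made from RNA pooled from 5 wells, so no comparison of 2 libraries has a replicate behind it, and none carries a p-value.

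In a proliferating cell, D-type cyclins bind CDK4 or CDK6 and start the phosphorylation of the retinoblastoma protein. This frees E2F1 and related factors to switch on the E-type cyclins and the genes of DNA replication, and cyclin E with CDK2 completes the phosphorylation at the restriction point, after which the cell no longer needs growth factors to enter S phase. CDKN1B (p27) binds and inhibits cyclin E-CDK2, and in macrophages the balance of these proteins is known to shift when cells leave the cycle during activation.

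The libraries held 17894937 to 18870516 counts each, and 11161 to 11627 genes reached 10 counts. All 8 macrophage markers were detected, and T cell and epithelial markers were at 3 counts or fewer in every library. TMM scaling, which sets libraries to a common level over most genes, gave factors of 0.8004 for M1 and 0.8836 for RM1 against 1.05 to 1.134 elsewhere. Levels below are TMM-scaled CPM, counts as a share of the scaled library total. Scaling by library totals instead moved the median of all genes in M1 against M0 to -0.46 on the log2 scale. The median in RM1 against RM0 then moved to -0.25. Log2 fold changes were computed with a prior count of 2. Their 95% intervals are exact binomial intervals and cover counting error only. Directions of the 10 genes beyond counting error that turn with library totals are given with their gene. Cdk2 in RM1 against M1, Cdkn1b in RM0 against M0 and Ccnd2 in RM2 against RM0 also turned, each within counting error. A gene was called changed between 2 libraries at 2-fold with at least 10 counts in either.

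Of the D-type cyclins, Ccnd3 rose with M1 polarization, while Ccnd1 and Ccnd2 were lower. Ccnd3 (NM_007632, cyclin D3, chromosome 17 of GRCm38, 47505051 to 47599688, plus strand) had 2469, 4007 and 2010 counts in M0, M1 and M2 and 2634, 2980 and 1646 in RM0, RM1 and RM2. Scaled, these were 124, 271 and 99.1 CPM in M0, M1 and M2 and 134, 179 and 83.0 in RM0, RM1 and RM2. The 2 M1-state libraries were the highest and the 2 M2-state libraries the lowest, and all 5 steps in the order M1, RM1, RM0, M0, M2, RM2 were larger than counting error. The log2 fold change of Ccnd3 was 1.12 (1.05 to 1.20) in M1 against M0 and 0.41 (0.33 to 0.49) in RM1 against RM0. With scaling by library totals these values were 0.68 and 0.16, so that Ccnd3 no longer reached 2-fold. In a bulk library, fewer cells of a kind and less RNA per cell cannot be told apart, which holds for every level given here.

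Ccnd1 (NM_007631, cyclin D1, chromosome 7, 144934016 to 144939925, minus strand) had 6152, 3573 and 5767 counts in M0, M1 and M2 and 5227, 2338 and 4892 in RM0, RM1 and RM2. At 140 CPM, RM1 stood below the other libraries, which lay between 242 and 310 CPM. RM2 and M1 were next to each other in this order and did not differ beyond counting error. With library totals, however, M1 was at 193 CPM and RM2 at 269 CPM. The log2 fold change of Ccnd1 was -0.36 (-0.42 to -0.30) in M1 against M0 and -0.93 (-0.999 to -0.857) in RM1 against RM0. Scaling by library totals gave -0.80 and -1.18 for these. Ccnd2 (NM_009829, cyclin D2, chromosome 6, 127150582 to 127151048, minus strand) had 917, 358 and 970 counts in M0, M1 and M2 and 834, 456 and 831 in RM0, RM1 and RM2. M1 and RM1, at 24.2 and 27.3 CPM, were separated from the other 4 libraries at 41.9 to 47.8 CPM, and within each of those sets neighbouring libraries did not differ beyond counting error. Ccnd2 was lower, at -0.93 (-1.11 to -0.76) in M1 against M0 and at -0.64 (-0.81 to -0.47) in RM1 against RM0 on the log2 scale, which did not reach 2-fold. With library totals it was at -1.37 in M1 against M0 and reached 2-fold.

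The make-up of the D-type cyclin counts differed accordingly. Counts here are not divided by gene length, so the shares are not shares of transcripts. Of all D-type cyclin counts, Ccnd3 made up 25.9% in M0 (exact 95% interval 25.01 to 26.78) and 50.5% in M1 (49.4 to 51.6). The share was 51.6% (50.3 to 52.9) in RM1 against 30.3% (29.3 to 31.3) in RM0, and 23.0% in M2 and 22.3% in RM2. Ccnd1 made up 64.5% of these counts in M0, 45.0% in M1 and 40.5% in RM1. The share is formed within a library and does not depend on the scaling between libraries. The summed level of the D-type cyclins was 481, 537 and 431 CPM in M0, M1 and M2 and 444, 346 and 371 in RM0, RM1 and RM2, so that M1 was the highest library and RM1 the lowest. With library totals RM1 was still the lowest, at 306 CPM, but M0 was the highest at 523 CPM and M1 lay below M0, M2 and RM0 at 430.

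**Figure D1:**
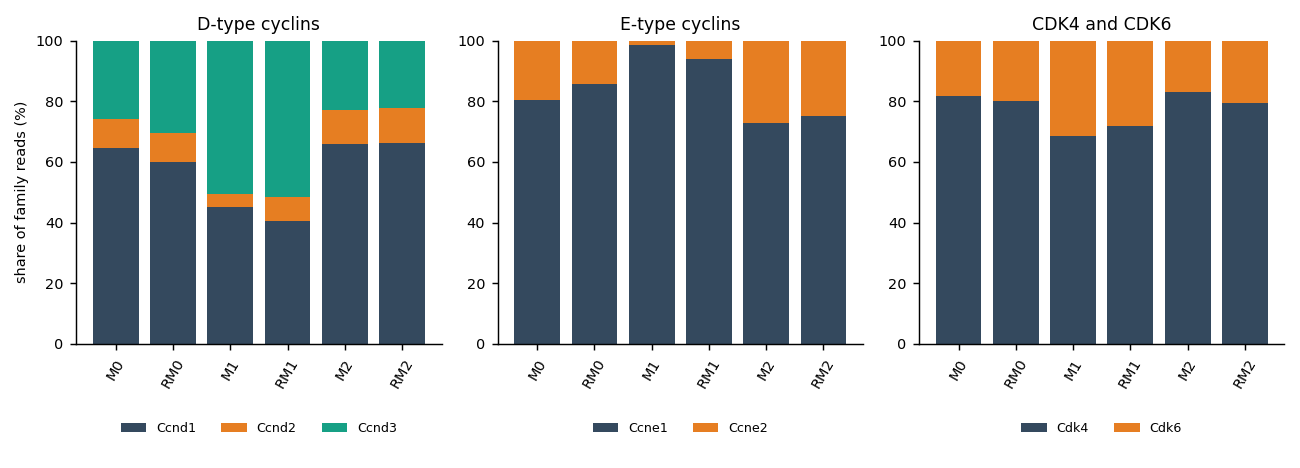
Share of counts (y axis, percent) of each D-type cyclin among the D-type cyclins (left), of Ccne1 and Ccne2 among the E-type cyclins (middle) and of Cdk4 and Cdk6 among these 2 kinases (right) in the 6 libraries on the x axis. Ccnd3 takes 50.5% of D-type cyclin counts in M1 and 51.6% in RM1 and at most 30.3% elsewhere, and Ccne2 takes 1.24% of E-type cyclin counts in M1 and 27.0% in M2.

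The partner kinases of the D-type cyclins also moved apart in M1. Cdk4 (NM_009870, chromosome 10, 127063603 to 127067282, plus strand) had 3809, 2310 and 3908 counts in M0, M1 and M2 and 3654, 2248 and 3175 in RM0, RM1 and RM2, which is 192, 156 and 193 CPM without and 186, 135 and 160 CPM with irradiation. Cdk6 (NM_009873, chromosome 5, 3344312 to 3522225, plus strand) had 846, 1060 and 800 counts in M0, M1 and M2 and 905, 884 and 823 in RM0, RM1 and RM2, which is 42.7, 71.7 and 39.4 CPM without and 46.2, 53.0 and 41.5 CPM with irradiation. Cdk6 was thus highest in M1 and RM1, where Cdk4 was lowest, although M1 and RM2 did not differ beyond counting error for Cdk4. With library totals Cdk4 was at 125 CPM in M1 and 175 in RM2. Cdk6 in RM0, at 48.5 CPM, then lay above RM1 at 46.8. M1 differed from M0 by 0.75 (0.62 to 0.88) on the log2 scale for Cdk6 and -0.30 (-0.37 to -0.22) for Cdk4. Scaling by library totals gave 0.31 and -0.74 for these. In RM1 against RM0 the difference was 0.20 (0.06 to 0.33) for Cdk6, which turns to -0.050 with scaling by library totals. For Cdk4 it was -0.47 (-0.54 to -0.39). Cdk6 made up 31.5% (29.9 to 33.1) of the counts of the pair in M1 and 28.2% (26.7 to 29.8) in RM1, against 17.0% to 20.6% in the other 4 libraries.

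Of the E-type cyclins, which bind CDK2 late in G1, Ccne2 had the widest range of all 10 genes. Ccne2 (NM_009830, chromosome 4, 11202985 to 11204779, plus strand) had 148, 9 and 220 counts in M0, M1 and M2 and 83, 31 and 151 in RM0, RM1 and RM2. M2 was the highest library at 10.8 CPM, RM2 and M0 followed at 7.61 and 7.46 CPM without differing beyond counting error, and RM0 at 4.24, RM1 at 1.86 and M1 at 0.609 CPM were each lower than the one before. The log2 fold change was -3.40 (-4.77 to -2.65) in M1 against M0 and -1.14 (-1.83 to -0.58) in RM1 against RM0. With 9 counts in M1 the interval of the first spans over 2 log2 units. In M2 the level was higher than in M0, by 0.53 (0.23 to 0.85), and in RM2 against RM0 by 0.83 (0.45 to 1.25). Of the exonic bases of Ccne2 between the start and end given above, 26.4% are shared with Ints8 on the opposite strand, which had 504 to 667 counts in the 6 libraries. Such sharing with a gene on the opposite strand was 7.9% for Cdk6 (Gm17590), 4.1% for Ccnd3 (Bysl), 0.5% for Cdk2 (Pmel) and 0.1% for Cdk4 (Tspan31). Whether counting used strand is not given in the sources used here, so the reads of these genes cannot be told apart where they overlap.

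Ccne1 (NM_007633, chromosome 7, 38097984 to 38107490, minus strand) had 608, 714 and 594 counts in M0, M1 and M2 and 498, 489 and 457 in RM0, RM1 and RM2. M1 stood above the rest at 48.3 CPM, and the other libraries lay between 23.0 and 30.7 CPM. The log2 fold change was 0.65 (0.50 to 0.81) in M1 against M0 and 0.21 (0.02 to 0.39) in RM1 against RM0, and the latter turns to -0.042 with scaling by library totals. Ccne2 made up 19.6% (16.8 to 22.6) of E-type cyclin counts in M0, 1.24% (0.571 to 2.35) in M1 and 27.0% (24.0 to 30.2) in M2. In the irradiated libraries it made up 14.3% (11.5 to 17.4) in RM0, 5.96% (4.09 to 8.36) in RM1 and 24.8% (21.4 to 28.5) in RM2.

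Cdk2 (NM_016756, chromosome 10, 128697939 to 128705051, minus strand), the kinase of cyclin E, had 825, 677 and 909 counts in M0, M1 and M2 and 708, 697 and 844 in RM0, RM1 and RM2. Scaled, 5 libraries lay between 41.6 and 45.8 CPM with no neighbours differing beyond counting error, and RM0 was lower at 36.1 CPM. Between M1 and M0 the log2 difference was 0.14 (-0.01 to 0.29), which turns to -0.30 with scaling by library totals. Between RM1 and RM0 it was 0.21 (0.06 to 0.36), which then turns to -0.039. With library totals M1 was the lowest library, at 36.7 CPM.

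The inhibitor Cdkn1b (NM_009875, chromosome 6, 134920401 to 134925525, plus strand) had 746, 707 and 821 counts in M0, M1 and M2 and 758, 1009 and 854 in RM0, RM1 and RM2. RM1 was the highest library at 60.5 CPM and M1 the next at 47.8, followed by 43.0 in RM2, 40.5 in M2, 38.7 in RM0 and 37.6 in M0, and among the last 4 no neighbours differed beyond counting error. The log2 fold change was 0.64 (0.51 to 0.78) in RM1 against RM0. In M1 against M0 it was 0.35 (0.20 to 0.50), and with scaling by library totals -0.095.

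E2f1 (NM_007891, chromosome 2, 154559400 to 154569892, minus strand), the transcription factor released by the retinoblastoma protein, had 736, 511 and 766 counts in M0, M1 and M2 and 614, 506 and 535 in RM0, RM1 and RM2. In CPM the order was M2 at 37.8, M0 at 37.1, M1 at 34.6, RM0 at 31.3, RM1 at 30.3 and RM2 at 27.0, and no step between neighbours was larger than counting error. The irradiated libraries were the 3 lowest in this order, but with library totals M1, at 27.7 CPM, lay below RM0 at 32.9 and RM2 at 29.5. M1 differed from M0 by -0.10 (-0.27 to 0.06) on the log2 scale, and by -0.54 with library totals.

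**Figure D2:**
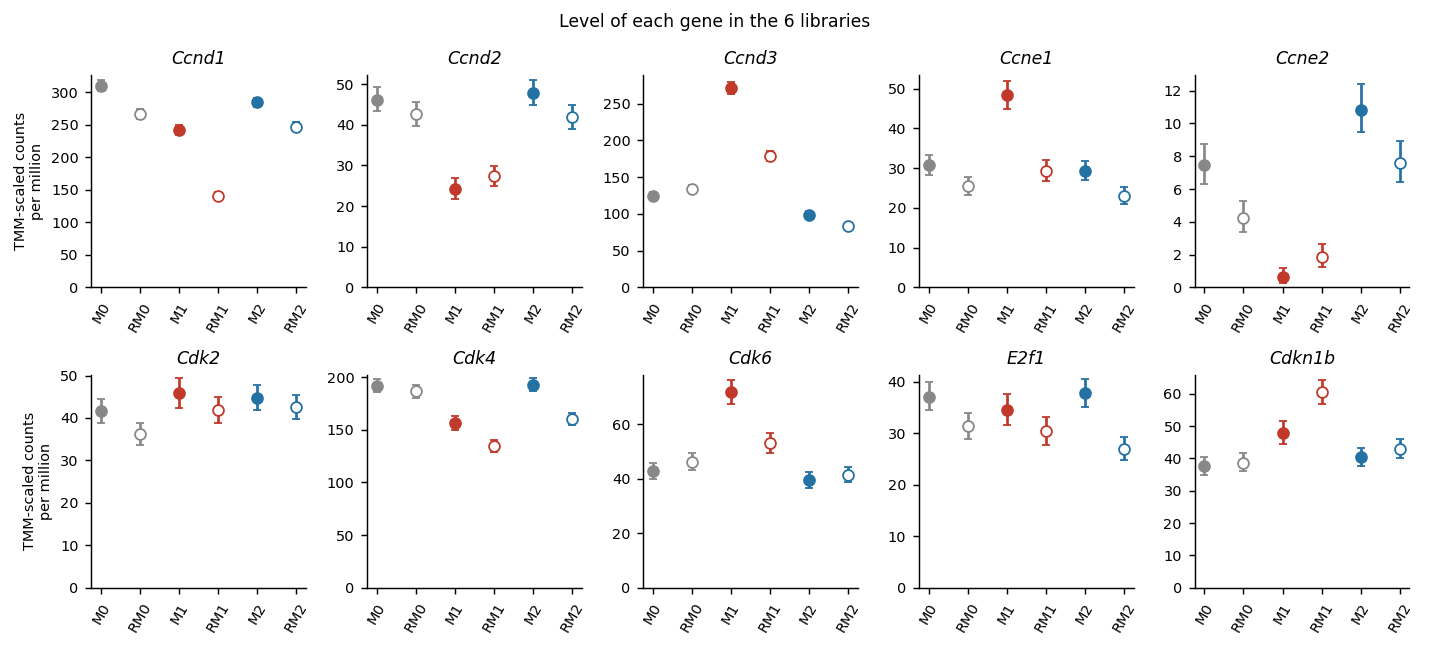
Level of each of the 10 genes (y axis, TMM-scaled CPM, from 0, a different scale in each panel) in the 6 libraries on the x axis. Points are single libraries, filled for non-irradiated and open for irradiated, and bars are exact 95% Poisson intervals of the count. Ccnd3, Ccne1 and Cdk6 are highest in M1, Cdkn1b is highest in RM1, and Ccnd2 and Ccne2 are lowest in M1 and RM1.

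Over the 6 libraries the range of log2 CPM was 3.93 for Ccne2, 1.71 for Ccnd3, 1.14 for Ccnd1, 1.06 for Ccne1, 0.98 for Ccnd2, 0.86 for Cdk6, 0.68 for Cdkn1b, 0.51 for Cdk4, 0.48 for E2f1 and 0.34 for Cdk2. With library totals the smallest range was 0.36, that of Cdk6, and Cdk2 was next at 0.47. Levels of different genes can be compared only per length. Per kilobase of the longest annotated transcript, the median over the 6 libraries was 84.4 CPM per kb for Cdk4, 68.6 for Ccnd1 and 33.6 for Ccnd3. It lay between 9.17 and 14.7 CPM per kb for Ccne1, Cdk2, E2f1 and Cdkn1b, and was 6.67 for Ccnd2, 3.85 for Cdk6 and 1.95 for Ccne2. This order rests on the length used. The start and end listed in the tables cover 59.1% of the annotated gene for Ccnd1, 13.4% for Ccne2 and 1.7% for Ccnd2, a stretch of 467 bp. Per kilobase of exon inside the listed bounds Ccnd1 reached a median of 244 CPM per kb, Ccnd2 90.4, Cdk4 68.2 and Ccnd3 14.8. Whether reads outside the listed bounds were counted is not known.

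With M1 polarization, 2 of the 10 genes were called in M1 against M0, Ccnd3 as higher and Ccne2 as lower, where 22.7% of 11778 tested genes were called. Beyond counting error 4 were higher and 4 lower, against 37.7% and 37.6% of all tested genes, and the 10 genes had a median of 0.02 on the log2 scale beside -0.03 over all genes. In RM1 against RM0, Ccne2 was the 1 gene called (14% of all tested genes), 5 genes were higher and 4 lower beyond counting error (35.3% and 33.6% of all genes), and the median was 0.08. With library totals 2 genes were again called in M1 against M0, but these were Ccnd2 and Ccne2, both lower, and over all genes 601 were then called higher and 2984 lower in place of 1104 and 1569. In RM1 against RM0, Ccnd1 was then called as well, at -1.18, and over all genes 498 were higher and 1493 lower in place of 722 and 922. The M1 difference shared by irradiated and non-irradiated cells was tested with edgeR's quasi-likelihood method in a model of polarization and irradiation over 11574 genes. In this test M1 and RM1 stand in for replicates, so it asks for a difference common to both.

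Of the 10 genes, 8 passed that test at an adjusted p under 0.05, 4 higher and 4 lower, where 47.6% of all tested genes passed, 23.3% as higher and 24.3% as lower. Ccnd3 was higher by 0.77 on the log2 scale (SE 0.16, adjusted p = 0.00264), Cdkn1b by 0.50 (SE 0.13, adjusted p = 0.00870), Cdk6 by 0.48 (SE 0.15, adjusted p = 0.0221) and Ccne1 by 0.44 (SE 0.14, adjusted p = 0.0260). The 4 lower genes were Ccne2 at -2.16 (SE 0.42, adjusted p = 0.00192), Ccnd2 at -0.78 (SE 0.14, adjusted p = 0.000926), Ccnd1 at -0.63 (SE 0.16, adjusted p = 0.00692) and Cdk4 at -0.38 (SE 0.12, adjusted p = 0.0233). Each had the same sign in M1 against M0 and in RM1 against RM0. For Cdk2 the estimate was 0.17 (SE 0.12, adjusted p = 0.255) and for E2f1 -0.07 (SE 0.13, adjusted p = 0.671). The calls of Ccne1, Cdk6 and Cdkn1b were lost with scaling by library totals in edgeR, at adjusted p of 0.610, 0.457 and 0.424, which left 1 of the 10 genes higher and 4 lower, beside 1091 higher and 4750 lower over all genes (2692 and 2817 with TMM). The estimate for Cdk2 then turned to -0.17. Without the M2 and RM2 libraries, those of Ccne1 and Cdk4 were lost at 0.0764 and 0.0792, and the DESeq2 Wald test gave an adjusted p of 0.0526 for Ccne1.

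Some markers of other cells moved with the M1 state. S100a8, which neutrophils and activated macrophages express, had 4580 counts in M0 against 32464 in M1 and 51228 in RM1, while the neutrophil genes Mpo and Elane were at 3 counts or fewer in every library. Summed levels, here scaled by library totals, ranged from 159 to 2716 CPM over the 4 neutrophil markers in the tables. Over the 6 fibroblast markers they ranged from 7.02 to 40.5 CPM. Most of this was Dcn, with 113 counts in M0 against 627 in M1 and 726 in RM1. Col1a2 and Col3a1 were at 0 in all libraries. The part of these markers in the differences of the cyclin and kinase genes was not tested.

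With M2 polarization the differences were small. None of the 10 genes was called in M2 against M0 or in RM2 against RM0, where 1.44% and 2.61% of tested genes were. Beyond counting error, 1 gene was higher and 2 were lower in M2 against M0 (12.8% and 16.4% of all tested genes), and 3 were higher and 5 lower in RM2 against RM0 (26.5% and 26.6%). The 3 that differed in M2 against M0 were Ccne2 at 0.53, Ccnd3 at -0.33 (-0.41 to -0.24) and Ccnd1 at -0.13 (-0.18 to -0.07). In RM2 against RM0, Ccnd3 was at -0.70 (-0.79 to -0.61). In edgeR's quasi-likelihood test, 0 of the 10 genes passed for the shared M2 difference, as against 0.19% of all tested genes, with 1 gene, Ccnd3, at an unadjusted p under 0.05 and an adjusted p of 0.382, and DESeq2 also gave 0 passing and 1 at an unadjusted p under 0.05. Without the M1 and RM1 libraries, 2 of the 10 genes passed, Ccnd3 at -0.50 (adjusted p = 3.89e-05) and Ccne2 at 0.68 (adjusted p = 0.00159). That setting passed many more genes in general, 1321 of 11574 tested genes in place of 22 with all libraries. The irradiated and non-irradiated comparisons of M1 and of M2 share the RM0 and the M0 library, respectively.

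**Figure D3:**
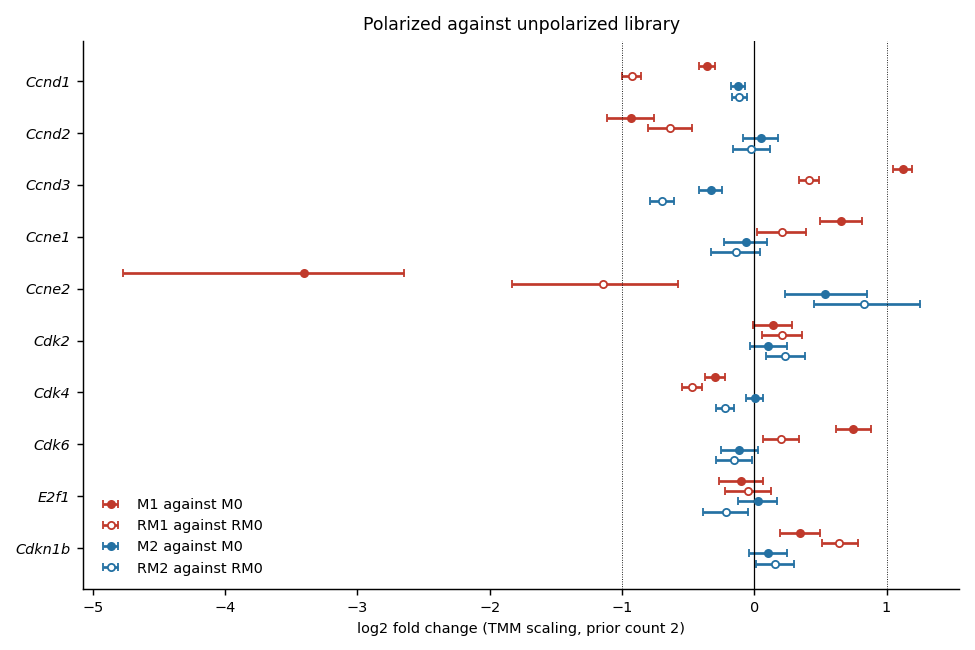
Log2 fold change (x axis) of each of the 10 genes (y axis) in M1 against M0, RM1 against RM0, M2 against M0 and RM2 against RM0, with exact 95% intervals that cover counting error only and dotted lines at 2-fold. In M1 against M0, Ccnd3 at 1.12 and Ccne2 at -3.40 lie beyond the 2-fold lines, and all M2 values lie inside them.

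After irradiation these genes differed by under 2-fold, Ccne2 in RM1 excepted. In RM0 against M0 none of the 10 genes was called, where 1.54% of tested genes were, and none was called in RM2 against M2 either, with 1.97% of tested genes. In RM1 against M1, Ccne2 was called as higher, from 9 to 31 counts, with 5.34% of tested genes called. Over all genes, 353 were called higher and 258 lower in RM1 (482 and 202 with library totals), and 122 and 110 in RM2 (98 and 149). Beyond counting error, 1 gene was higher and 5 were lower in RM0 against M0, where 16.9% of all tested genes were higher and 14.8% lower. In RM2 against M2, 0 were higher and 7 lower (22.1% and 19.5% of all genes), and in RM1 against M1 2 were higher and 6 lower (26.8% and 30.4%). On the log2 scale the 10 genes had medians of -0.16, -0.20 and -0.23 in RM0, RM1 and RM2 against M0, M1 and M2, beside -0.00084, -0.012 and -0.0025 over all genes. With library totals these medians were -0.21, -0.058 and -0.28, beside -0.050, 0.13 and -0.055 over all genes.

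Ccne1, Ccnd1 and E2f1 were lower beyond counting error in all 3 irradiated libraries. Ccne1 differed by -0.27 (-0.44 to -0.10) in RM0, by -0.72 (-0.89 to -0.55) in RM1 and by -0.34 (-0.53 to -0.17) in RM2. For Ccnd1 these values were -0.22 (-0.27 to -0.16), -0.78 (-0.86 to -0.71) and -0.21 (-0.26 to -0.15), the largest being that of RM1. E2f1 differed by -0.24 (-0.40 to -0.09), -0.19 (-0.37 to -0.01, and -0.045 with library totals) and -0.48 (-0.65 to -0.32), the largest being that of RM2. Cdk4 was at -0.04 (-0.11 to 0.02) in RM0, -0.21 (-0.30 to -0.13, and -0.070 with library totals) in RM1 and -0.27 (-0.34 to -0.20) in RM2. Cdk6 was lower in RM1, at -0.43 (-0.57 to -0.31), and its intervals for RM0 and RM2 held 0. The inhibitor Cdkn1b was higher in RM1, at 0.34 (0.20 to 0.48), with 0.04 (-0.11 to 0.19) in RM0 and 0.09 (-0.05 to 0.23) in RM2.

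Ccnd3 and Ccne2 did not go the same way in the 3 states. Ccnd3 was at 0.11 (0.03 to 0.19) in RM0, -0.60 (-0.67 to -0.53) in RM1 and -0.26 (-0.35 to -0.16) in RM2. With library totals the Ccnd3 values were 0.061, -0.46 and -0.31. Ccne2 was at -0.80 (-1.22 to -0.42) in RM0 and -0.50 (-0.82 to -0.21) in RM2 but at 1.46 (0.51 to 2.87) in RM1. With 1 library per condition these differences between states could not be tested.

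For an irradiation difference shared by the 3 states, edgeR's quasi-likelihood test gave 0 of the 10 genes at an adjusted p under 0.05, where 0.475% of all tested genes passed, 40 higher and 15 lower, and 3 and 0 with library totals. Here the 3 states take the place of replicates. An unadjusted p under 0.05 was reached by 3 genes, Ccne1 at -0.45 (SE 0.12, adjusted p = 0.141), Ccnd1 at -0.40 (SE 0.13, adjusted p = 0.199) and E2f1 at -0.31 (SE 0.11, adjusted p = 0.229), and the DESeq2 Wald test also gave 0 of 10, with 3 at an unadjusted p under 0.05. Without the M1 and RM1 libraries, 2 genes passed in edgeR, Ccne2 at -0.64 (adjusted p = 0.00522) and E2f1 at -0.36 (adjusted p = 0.0355). Over all 11574 tested genes, 522 passed in that setting, in place of 55 with all libraries.

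**Figure D4:**
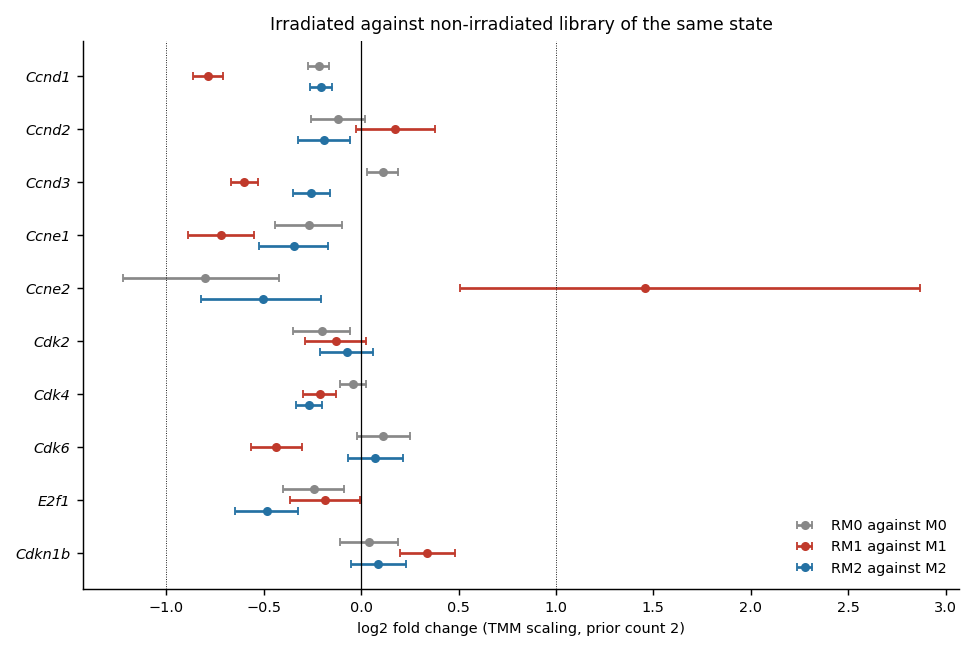
Log2 fold change (x axis) of each of the 10 genes (y axis) in the irradiated against the non-irradiated library of the M0, M1 and M2 states, with exact 95% intervals that cover counting error only and dotted lines at 2-fold. Ccne1, Ccnd1 and E2f1 lie below 0 in all 3 states, Ccne2 lies at 1.46 in RM1 against M1, and Ccnd3 lies at 0.11 in RM0 and at -0.60 in RM1.

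The other genes around the restriction point were described from lists of inhibitors, pocket proteins and E2F partners, genes of CDK activation and turnover, and replication genes known as E2F targets. The lists were chosen with earlier results of these data known. Their counts beside the shares of all genes are therefore a description and not a test of the lists. Of 6 further CDK inhibitors, 3 had 0 counts in every library, Cdkn1c, Cdkn2a and Cdkn2b. The other 3 all rose in the shared M1 test of edgeR (quasi-likelihood, over 11574 genes), where 23.3% of all genes did. Cdkn1a (p21), a p53 target that inhibits cyclin-CDK complexes, had 11704, 18089 and 11102 counts in M0, M1 and M2 and 15258, 21973 and 11324 in RM0, RM1 and RM2, and was higher in the M1 state by 0.90 (SE 0.15, adjusted p = 0.000619). Cdkn2d (p19-INK4d), an inhibitor of CDK4 and CDK6, had 533, 1199 and 523 counts in M0, M1 and M2 and 538, 859 and 473 in RM0, RM1 and RM2, and was higher by 1.26 (SE 0.16, adjusted p = 0.000157). Cdkn2c (p18-INK4c), of the same family, was higher by 1.00 (SE 0.20, adjusted p = 0.00247). With irradiation 0 of the 3 passed, with 0 at an unadjusted p under 0.05 in edgeR or DESeq2, and none was called at 2-fold. Cdkn1a differed by 0.40 (0.37 to 0.44) in RM0, 0.11 (0.08 to 0.14) in RM1 and 0.06 (0.02 to 0.10) in RM2.

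Among 12 pocket proteins and E2F partners, 2 were higher and 5 lower in the shared M1 test, where 23.3% and 24.3% of all genes were. Rb1, the retinoblastoma protein itself, was higher by 0.93 (SE 0.14, adjusted p = 0.000316), and Rbl1 (p107) was lower, at -0.49 (SE 0.17, adjusted p = 0.0345). Tfdp1 and Tfdp2, which pair with E2F proteins to bind DNA, were lower, at -1.21 (SE 0.17, adjusted p = 0.000250) and -1.10 (SE 0.23, adjusted p = 0.00322). E2f7, a repressor of E2F target genes, had 82, 4 and 86 counts in M0, M1 and M2 and 24, 8 and 47 in RM0, RM1 and RM2, and was lower, at -2.67 (SE 0.52, adjusted p = 0.00189). These adjusted p values are from edgeR. E2f7 was also the only gene of the list called with irradiation, at -1.67 (-2.48 to -1.08) in RM0 against M0, and 0 of the 12 passed the shared irradiation test, with 5 at an unadjusted p under 0.05 in edgeR and 0 passing in DESeq2, with 2 at an unadjusted p under 0.05.

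Of 10 genes of CDK activation and turnover, 0 were higher and 5 lower in the shared M1 test of edgeR (23.3% and 24.3% of all genes), and 0 passed for irradiation, with 2 at an unadjusted p under 0.05 in edgeR and also in DESeq2, which passed 0. The largest difference was that of Cul1, the scaffold of the SCF ubiquitin ligases that mark cyclin E and p27 for degradation, which had 1277, 427 and 1368 counts in M0, M1 and M2 and 1207, 729 and 1542 in RM0, RM1 and RM2 and was lower, at -0.82 (SE 0.16, adjusted p = 0.00176). Cks1b, a cofactor of p27 turnover, was lower, at -0.65 (SE 0.14, adjusted p = 0.00343), and Fbxw7, which recognises cyclin E, at -0.51 (SE 0.19, adjusted p = 0.0428). Cdk7 and Ccnh, subunits of the CDK-activating kinase, were lower, at -0.47 (SE 0.15, adjusted p = 0.0224) and -0.45 (SE 0.13, adjusted p = 0.0138).

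The 16 E2F target genes were mostly lower after irradiation, at sizes under 2-fold. All 16 were below 0 in RM0, RM1 and RM2 against their non-irradiated states with TMM scaling, and 16, 13 and 16 with library totals, with TMM medians of -0.62, -0.42 and -0.61, where 50.2%, 51.3% and 50.4% of all genes were below 0. Beyond counting error 16, 10 and 16 were lower, where 14.8%, 30.4% and 19.5% of all genes were. Mcm4, Mcm7 and Rrm1, named after their values were seen, were at 0.028, 0.0018 and 0.10 in RM1 against M1 with library totals. In the shared irradiation test of edgeR, 4 passed (0.13% of all tested genes passed as lower), all 4 lower and all subunits of the MCM helicase that licenses replication origins. They are named after their values were seen, Mcm3 excepted. Mcm5 differed by -0.86 (SE 0.10, adjusted p = 0.00754), Mcm6 by -0.70 (SE 0.11, adjusted p = 0.0220), Mcm2 by -0.60 (SE 0.10, adjusted p = 0.0266) and Mcm3 by -0.58 (SE 0.10, adjusted p = 0.0418). This number of genes was 0 with scaling by library totals or without the polarization term, 1 without the M2 and RM2 libraries, 7 with no filter on counts and 16 without the M1 and RM1 libraries. Over all genes, 3 passed with library totals and 0 without the polarization term. In the same order as above, 78, 156 and 522 passed in the other settings.

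In the M1 state, 13 of the 16 E2F targets were lower in the shared test and 0 were higher, where 24.3% and 23.3% of all genes were. In M1 against M0, 10 were called lower (13.3% of all tested genes), with a median of -1.09. Cdc6, which loads the MCM helicase, had 285, 43 and 287 counts in M0, M1 and M2 and 164, 27 and 162 in RM0, RM1 and RM2, and was lower, at -2.33 (SE 0.21, edgeR adjusted p = 1.59e-05). Mcm3 and Mcm7 were lower, at -2.02 and -1.93, Ccna2, the S phase cyclin A2, was at -1.70, and Rrm2, a ribonucleotide reductase subunit, at -1.50. With M2 polarization 0 of the 16 passed, with 2 at an unadjusted p under 0.05 in edgeR and also in DESeq2, which passed 0. The median shared M1 difference was 1.00 for the 3 inhibitors, -0.14 for the pocket proteins and E2F partners, -0.38 for the genes of CDK activation and turnover and -1.11 for the E2F targets, beside -0.02 over all tested genes. The median shared irradiation difference was -0.11, -0.09, -0.08 and -0.53 in the same order, beside -0.01. E2f1 itself did not pass the test for M1 or for irradiation.

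**Figure D5:**
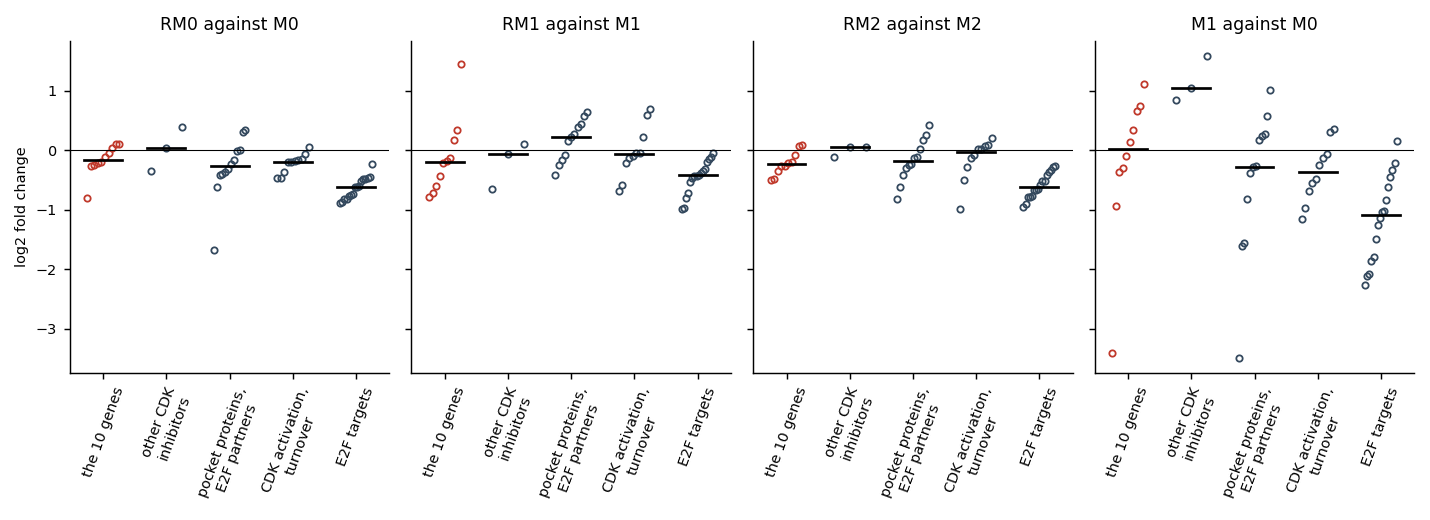
Log2 fold change (y axis) of the 10 genes and of each list of pathway genes (x axis, 1 point per gene with at least 10 counts in either library, bars at the median) in RM0 against M0, RM1 against M1, RM2 against M2 and M1 against M0. All 16 E2F targets lie below 0 in the 3 irradiation comparisons (13 of 16 in RM1 against M1 with library totals), with medians of -0.62, -0.42 and -0.61. The 10 G1 genes have medians of -0.16, -0.20 (-0.058 with library totals) and -0.23.

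Since E2F factors link this pathway to its targets, promoter sequences from RefSeq (GRCm38.p6), 250 bases before to 50 after a gene's start, were searched for the E2F motifs TTTCCCGC and TTTGGCGC on either strand. A promoter was found for 7 of the 10 genes, and none for Ccnd1, Ccnd2 and Ccne2. Of the 8 promoters of these 7 genes, 1 held a motif, that of Cdk2. Among all 32851 promoters 1.56% held either motif, and of the 14 promoters of E2F targets 7 did. The GC box GGGCGG, on either strand, was in 7 of the 8 promoters and in 35.7% of all. The stretches upstream of the start are given for Cdk2, E2f7 and Mcm6, which hold a motif, and for Ccnd3 and Ccne1, which hold neither. Only these exact E2F strings were searched, and no other form of the site. Ccnd3 had a further promoter, also without either string, which is not printed. E2f7 was picked as lower in RM0 against M0, Mcm6 as lower in the shared irradiation test, and Ccnd3 and Ccne1 as higher in M1. Ccne1, without either string, was also lower in RM0, RM1 and RM2 against their non-irradiated states, at -0.27, -0.72 and -0.34. Whether a motif goes with a difference in level was not tested. The motif is in capitals and reads 5′ to 3′ on the gene's strand, as GCGGGAAA where it lies on the other strand. These are matches of letters only.
Cdk2, chr10:128705159-128705216, minus strand: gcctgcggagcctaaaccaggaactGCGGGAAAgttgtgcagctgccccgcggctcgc
E2f7, chr10:110745216-110745273, plus strand: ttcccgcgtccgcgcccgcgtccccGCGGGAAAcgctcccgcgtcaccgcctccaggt
Mcm6, chr1:128359720-128359840, minus strand: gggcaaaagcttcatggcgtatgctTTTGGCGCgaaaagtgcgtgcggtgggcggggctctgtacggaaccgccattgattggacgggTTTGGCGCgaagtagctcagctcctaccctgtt
Ccne1, chr7:38107491-38107560, minus strand: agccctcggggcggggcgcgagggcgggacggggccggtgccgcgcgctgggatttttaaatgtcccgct
Ccnd3, chr17:47504981-47505050, plus strand: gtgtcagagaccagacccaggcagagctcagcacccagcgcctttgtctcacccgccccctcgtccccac

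The genes whose levels followed Ccne2 and Ccnd3 most closely over the 6 libraries were named by Pearson's r of log2 CPM. For Ccne2 these were Fancm (r = 0.9975), Nars (0.9970) and Cse1l (0.9965), and 697 of 11564 genes had an r above 0.95. Fancm had 208, 63 and 245 counts in M0, M1 and M2 and 157, 101 and 214 in RM0, RM1 and RM2. For Ccnd3 they were Capns1 (0.9986), Cib1 (0.9986) and Rnf25 (0.9985), with 831 of 11564 genes above 0.95. Over 6 libraries in which M1 and RM1 stand apart, such values describe the pattern and single out no gene.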

How the data were processed

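RNA-seq was analysed in 6 libraries of RAW264.7 macrophages, 1 per condition. Per the labels, the authors trimmed reads with Trimmomatic (0.36), aligned them with HISAT2 (2.2.1) to mm10 and counted them with HTSeq (0.11.3), and they deposited raw counts per gene without normalization. The strand setting and the counted region of each gene are not given in the sources used here. Totals ranged from 17894937 to 18870516 counts, and intervals, at 95% by the exact Clopper-Pearson method, cover counting error only. Gene bounds and exonic bases were compared with GENCODE M21, and promoters came from RefSeq.

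Counts were scaled with TMM in edgeR (4.0.16, R 4.3.3), and a prior count of 2 entered each log2 fold change. Effects shared by states were tested on 11574 genes that reached 10 counts in 3 or more libraries, by edgeR's quasi-likelihood method with state and irradiation as terms and Benjamini-Hochberg adjustment at 0.05. The test assumes an equal effect in each state and leaves 2 residual degrees of freedom. On simulated data with a coefficient of variation of 0.1 and a log2 fold change of 1 in 200 of 11574 genes, it recovered 93.5% for irradiation and 92.5% for M1, with 13 false calls in each. The simulated difference was equal in every library that carried it. The recovery therefore does not cover smaller differences or genes whose states differ.

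The 10 genes and the gene lists were chosen with earlier results of these data known. Named genes were the 10 genes and, of each list, up to 5 called or passing genes with the largest change. Alternatives were DESeq2 (1.42.0) size factors and test, library totals, a prior count of 0.25, other count filters, a 1.5-fold threshold, no polarization term and each state left out. Python 3.11.15 was used for the rest. Columns of other kinds in the tables were not used here.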

Additional observations from a re-analysis of the deposited data

Results flagged for a closer look

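Between irradiated and non-irradiated libraries, 2 of the 10 genes differed in opposite directions in different states with TMM scaling. For Ccnd3 the log2 fold change was 0.11 in RM0 against M0 (0.061 with library totals), while it was -0.60 in RM1 against M1 and -0.26 in RM2 against M2. Most well-counted genes lay between -0.31 and 0.27 in RM0 against M0, a range that holds the Ccnd3 value. For Ccne2 it was 1.46 in RM1 against M1, while it was -0.80 in RM0 against M0 and -0.50 in RM2 against M2. The Ccne2 value of RM1 against M1 rests on 31 and 9 counts. Each condition has 1 library, and the difference between states was not tested.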

How the results depend on the processing

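The main limits are 1 library per condition, a test in which states stand in for replicates, and the scaling of the M1 and RM1 libraries. The labels give no replicate numbers, so pairing by replicate was not possible. The shared irradiation test was paired by state, setting the irradiated beside the non-irradiated library of each state. Where a value below differs from the report, the cause was not tested unless the setting itself changes what is counted.

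At 1.5-fold in place of 2-fold, the number of the 10 genes called was 1 in RM0 against M0, 4 in RM1 against M1, 5 in M1 against M0, 4 in RM1 against RM0 and 2 in RM2 against RM0, and over all genes it was 696 in RM0 (180 at 2-fold), 2036 in RM1 (611) and 848 in RM2 (232) against their states, 5268 (2673) in M1 and 582 (169) in M2 against M0, and 3816 (1644) in RM1 and 1211 (307) in RM2 against RM0. With at least 50 counts, 0 of the 10 genes was called in RM1 against M1, since Ccne2 was left out, and over all genes 55, 304 and 67 were called in RM0, RM1 and RM2, 38 in M2 against M0 and 104 in RM2 against RM0. With no filter on counts these numbers were 434, 1229, 510, 427 and 598. With library totals, 2 of the 10 genes were called in RM1 against RM0, and the log2 fold change turned to -0.0949 for Cdkn1b in M1 against M0 and to -0.0423 for Ccne1, -0.0386 for Cdk2 and -0.0499 for Cdk6 in RM1 against RM0.

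In the shared tests of edgeR, 2 of the 10 genes passed for irradiation and 2 for M2 without the M1 and RM1 libraries, and 5 passed for M1 with library totals. Over all genes, 55 passed for irradiation. That number was 3 with library totals, 156 with no filter, 0 without the polarization term, 155 without M0 and RM0, 522 without M1 and RM1, and 115 in DESeq2. For M2, 22 passed, against 3 with library totals, 56 with no filter, 1321 without M1 and RM1, and 41 in DESeq2.

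Of 210 alternative log2 fold changes of 1 gene between 2 libraries, 9 changed sign, 8 of them with library totals and 1, Cdk4 in M2 against M0, with DESeq2 size factors. Of 290 alternative shared effects of 1 gene, 254 kept direction and side of the threshold, 28 no longer passed and 4 passed anew. The other 4, all of genes that did not pass in the report's test, changed sign, to -0.1710 for Cdk2 in M1 with library totals and, for irradiation, to 0.0288 for Ccnd2 without M2 and RM2, 0.0359 for Ccne2 without M0 and RM0 and 0.1012 for Cdk6 without M1 and RM1. For Ccne2 in M1, 9 counts limit the precision.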
